A study of Mus musculus with 20 samples.

Results

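The unfolded protein response (UPR) genes described here are 10 of the 54532 genes counted by RNA-seq in the temporomandibular joint (TMJ) of mice, the joint between the jaw and the skull. They were chosen by name, with earlier results of these data known, as regulators of endoplasmic reticulum (ER) stress and their best known targets. The stress genes are *Atf4*, *Ddit3* and *Trib3*, the ER targets are *Hspa5*, *Herpud1* and *Dnajb9*, the sensor is *Atf6*, and the secretory capacity factors are *Xbp1*, *Creb3l1* and *Creb3l2*. All animals were Acan-Cre;*Loxl2* fl/fl mice, which carry a floxed *Loxl2* gene (lysyl oxidase-like 2, a crosslinking enzyme of collagen and elastin) and a tamoxifen-inducible Cre recombinase driven by the promoter of aggrecan, a cartilage proteoglycan. The 8 control mice received vehicle, and the 12 mice labelled *Loxl2* knockout received tamoxifen. Drug and deletion cannot be told apart. Injections began at 6 months of age, daily for 5 days and then monthly, and condylar heads with some of the bone below the cartilage were collected 4 months later from males and females. Each library is 1 numbered sample of a group, and the labels give neither sex nor batch.

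No loss of *Loxl2* was seen in the libraries labelled knockout. Levels are given as CPM, the counts of a gene relative to the library total after scaling for library size and composition. *Loxl2* was at 64.5 CPM ± 30.9 (SD, n = 8) in control against 101 CPM ± 26.9 (SD, n = 12) with the knockout label, a log2 fold change of 0.64 ± 0.28 (SE) that did not pass the test (edgeR quasi-likelihood, adjusted p = 0.101). Whole-gene counts do not separate the floxed exons from the rest of the transcript, and the level comes from all cells of the tissue, so it does not show whether the deletion took place in aggrecan-expressing cells. The group is therefore named by its label throughout. The study itself reported reduced LOXL2 by immunohistochemistry in the knockout mice, a measure of protein that these counts do not give. The tissue held RNA of several cell types besides cartilage. The summed level of 8 chondrocyte markers ran from 67.4 to 4215 CPM in control and from 546 to 6562 CPM in the libraries labelled knockout, while 8 skeletal muscle markers summed to between 24101 and 146386 CPM over all libraries. In such bulk tissue, fewer cells of a type and less RNA per cell cannot be told apart. Control replicates 6 and 8 and knockout replicate 5 had the lowest sums of chondrocyte markers and of osteoblast and osteocyte markers in their groups. Calls of the 10 genes and of the pathway lists that rest on them are given below with and without them. Calls of the cell type markers are given only with them included. The ratios and the search for genes that followed each factor were not repeated without all of them. Library totals ran from 11153820 to 27045668 counts, and the fewest counts of any of the 10 genes in any library was 15.

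The UPR is the reaction of a cell to unfolded protein in the ER. PERK (encoded by *Eif2ak3*) slows translation and raises ATF4, which switches on *Ddit3* (CHOP, a factor tied to cell death under lasting stress) and the pseudokinase gene *Trib3*. IRE1 (encoded by *Ern1*) splices the *Xbp1* transcript into the form that encodes an active factor, and ATF6 travels to the Golgi and is cut there to release its active part. XBP1 and ATF6 raise chaperones such as BiP (*Hspa5*) and components of ER-associated degradation such as *Herpud1*. CREB3L1 (OASIS) and CREB3L2 (BBF2H7) are relatives of ATF6 that are cut in the same manner. CREB3L1 is known for its role in collagen secretion by osteoblasts, and CREB3L2 for its role in the secretory machinery of chondrocytes, in which it controls *Sec23a*. The comparison asks whether the stress genes and the secretory factors moved together in the same libraries.

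Several of these genes carry short DNA elements just before their start that are recognised by the factors of the pathway. Windows from 250 bases before to 50 bases after the start were at hand for 8 of the 10 genes (RefSeq, GRCm38.p6), and 3 elements were searched on both strands. The ER stress element (ERSE, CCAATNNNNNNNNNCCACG) was present in 39 of 32851 mouse windows, or 0.119%, and among the 8 genes in *Hspa5*, at 65 to 47 bases before the start. The related element ERSE-II (ATTGGNCCACG) was present in 12 windows, or 0.0365%, and among the 8 genes in *Herpud1*, at 52 to 42 bases before the start. An ATF4-type element (CARE, TGNTGCAAN) was present in 1055 windows, or 3.21%, and among the 8 genes in *Trib3*, at 33 to 25 bases before the start, and in *Herpud1* on the opposite strand, at 113 to 105 bases before the start. No match overlapped another. The stretches that hold them are printed 5′ to 3′ on the strand of the gene, with the matched letters in capitals, because these 3 genes are well known readouts of the pathway and their levels are compared below.
*Trib3*, chr2:152344061-152344210, minus strand: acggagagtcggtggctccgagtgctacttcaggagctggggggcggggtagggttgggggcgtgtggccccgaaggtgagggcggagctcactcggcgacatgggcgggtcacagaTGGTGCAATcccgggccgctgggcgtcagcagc
*Hspa5*, chr2:34772019-34772048, plus strand: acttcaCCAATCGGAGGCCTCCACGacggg
*Herpud1*, chr8:94386279-94386428, plus strand: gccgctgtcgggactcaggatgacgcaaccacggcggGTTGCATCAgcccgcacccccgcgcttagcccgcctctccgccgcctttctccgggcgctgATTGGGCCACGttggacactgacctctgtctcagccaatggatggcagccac
A match is a description of the letters, and binding was not measured. Distances are counted from the RefSeq start. GENCODE starts *Hspa5* farther upstream, so the stretch printed for that gene lies inside the GENCODE span given below.

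The 3 secretory capacity factors were higher in the libraries labelled knockout, and the stress genes and ER targets did not pass edgeR's quasi-likelihood test in either direction. *Creb3l1* was 3.64-fold higher (95% interval 2.25 to 5.89), *Xbp1* 1.33-fold higher (1.19 to 1.49) and *Creb3l2* 1.31-fold higher (1.09 to 1.56). All 10 genes passed the filter on low counts. Of these, 3 (30%) passed the test, all higher in the libraries labelled knockout. Over the 15984 genes tested, 23.0% passed, 12.0% as higher and the rest as lower. The DESeq2 Wald test called these 3 genes and no other of the 10. The median log2 fold change of the 10 genes was 0.12 against −0.02 over all genes tested, and 8 of the 10 values were positive. Of the 7 genes that did not pass, *Herpud1* and *Dnajb9* had an unadjusted p under 0.05, and both of these values were negative.

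**Figure D1:**
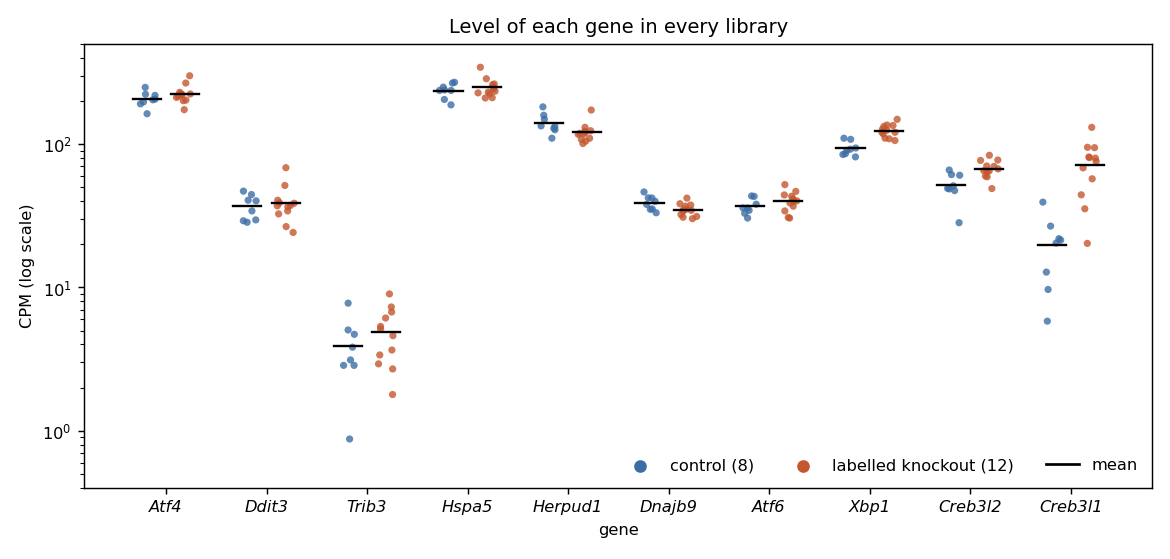
Level of the 10 genes in every library, in CPM on a log scale, with 1 point per library and a line at the group mean. The points of *Creb3l1* and *Xbp1* sit higher in the libraries labelled knockout with little overlap, whereas those of *Atf4*, *Ddit3*, *Trib3*, *Hspa5* and *Atf6* overlap widely between the groups.

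*Creb3l1* (ENSMUSG00000027230, chr2:91982328-92024502, minus strand) showed the largest difference of the 10 genes. Its level was 5.82 CPM in the lowest control library, 20.9 CPM at the median and 39.4 CPM in the highest. In the libraries labelled knockout the lowest was 20.3 CPM, the median 77.9 CPM and the highest 131 CPM. The highest control value lay above only 2 libraries labelled knockout, replicates 5 and 12, and 10 of 12 were above every control library. This gave a log2 fold change of 1.86 ± 0.33 (SE, n = 8 and 12; adjusted p = 0.00141). The lowest values of each group, 5.82 and 9.68 CPM in control replicates 8 and 6 and 20.3 CPM in knockout replicate 5, were those of the 3 libraries low in cartilage and bone markers. Without these 3 libraries the log2 fold change was 1.68 ± 0.26 (SE; adjusted p = 0.00118).

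*Xbp1* (ENSMUSG00000020484, chr11:5520659-5525893, plus strand) differed less but was the steadier of these genes, with a coefficient of variation of 11.3% in control and 10.4% in the libraries labelled knockout. It ran from 81.5 to 110 CPM in control with a median of 91.3 CPM, and from 106 to 149 CPM in the libraries labelled knockout with a median of 123 CPM. All 12 libraries labelled knockout were above the control median, and 10 were above every control library. In the fit over all genes the difference was 0.41 ± 0.08 (SE, log2 scale; adjusted p = 0.00203). The counts cover the whole gene, so the spliced transcript that encodes the active factor was not measured.

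*Creb3l2* (ENSMUSG00000038648, chr6:37327255-37442146, minus strand) was 28.3 CPM in the lowest control library, 50.2 CPM at the median and 66 CPM in the highest. In the libraries labelled knockout it was 49, 66.3 and 83.6 CPM. The groups overlapped: 11 of 12 libraries labelled knockout were above the control median and 6 were above every control library. Fitted over all genes, it rose by 0.38 ± 0.12 (SE, log2 scale; adjusted p = 0.0285). Control replicate 8 held the lowest value of all, and the log2 fold change was 0.31 ± 0.10 (SE; adjusted p = 0.0405) without it and 0.29 ± 0.09 (SE; adjusted p = 0.0416) without the 3 libraries low in cartilage and bone markers. The call did not hold in 5 alternative fits, among them the 16 libraries with replicate numbers 1 to 8 (0.36 ± 0.14, adjusted p = 0.0829).

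**Figure D2:**
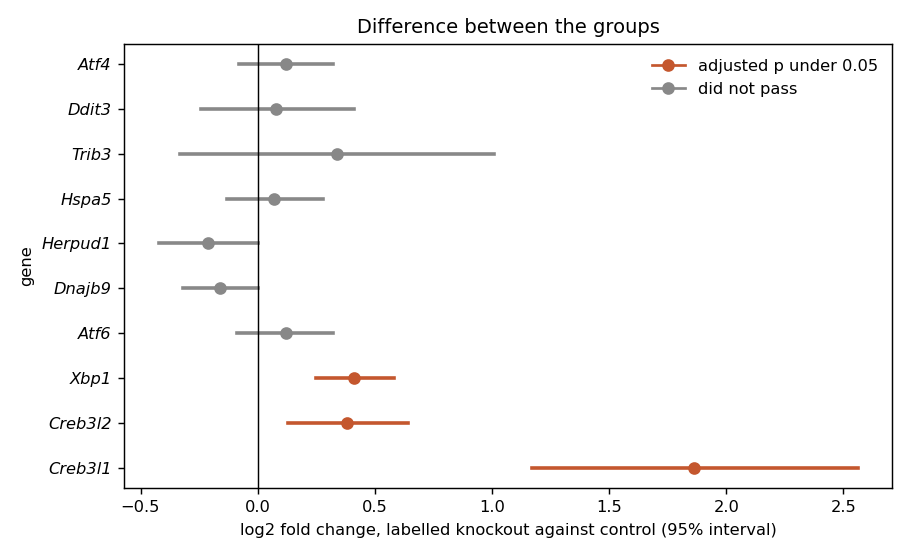
Log2 fold change of each gene, libraries labelled knockout against control, with its 95% interval from the edgeR fit over all genes (8 and 12 libraries). *Xbp1*, *Creb3l2* and *Creb3l1* lie above 0 and passed, and the widest interval among the others is that of *Trib3*, from −0.33 to 1.01.

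The stress genes did not pass the test, and a difference between them and the secretory factors was not tested. *Atf4* (ENSMUSG00000042406, chr15:80255184-80257541, plus strand), the transcription factor at the head of the PERK arm, ran from 163 to 249 CPM in control with a median of 205 CPM, and from 174 to 300 CPM in the libraries labelled knockout with a median of 221 CPM. The ranges overlapped, with control replicate 1 alone below them and knockout replicates 3 and 4 above. The log2 fold change was 0.12 (95% interval −0.08 to 0.32; adjusted p = 0.368). It passed under 1 scaling, by library totals alone, at 0.28 (adjusted p = 0.0192), which also moved the median of all genes from −0.02 to 0.12 and the split of called genes from 1918 higher and 1755 lower to 2188 higher and 849 lower. ATF4 is controlled mainly at translation, which counts of its RNA do not measure.

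*Ddit3* (ENSMUSG00000025408, chr10:127290774-127296288, plus strand), the gene of CHOP, ran from 28.5 to 47 CPM in control with a median of 37.2 CPM, and from 24.2 to 68.5 CPM in the libraries labelled knockout with a median of 37.3 CPM. The medians were nearly the same, and 6 of 12 libraries labelled knockout were above the control median. The log2 fold change was 0.08 (95% interval −0.24 to 0.41; adjusted p = 0.732), and it was −0.02 without knockout replicate 3, the library with the highest value. The interval on the fold scale, 0.84 to 1.33, reaches the fold measured for *Xbp1*. *Mars* overlaps *Ddit3* on the other strand and had 702 to 2035 counts per library against 325 to 1375 for *Ddit3*, and the use of strand in counting is not given in the sources used here, so reads of the shared stretch cannot be told apart.

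*Trib3* (ENSMUSG00000032715, chr2:152337422-152344032, minus strand), a target of ATF4 and CHOP whose printed stretch carries the CARE letters, was the lowest of the 10 genes. It ran from 0.876 to 7.77 CPM in control with a median of 3.47 CPM, and from 1.79 to 9.01 CPM in the libraries labelled knockout with a median of 4.87 CPM. Control replicate 3 was lowest at 15 counts, and 1 library labelled knockout, replicate 3, was above every control library. The fitted log2 fold change was 0.34 (95% interval −0.33 to 1.01; adjusted p = 0.465). On the fold scale the interval ran from 0.79 to 2.01, and the estimate was close to those of *Creb3l2* (0.38) and *Xbp1* (0.41) with a wider error.

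Among the ER targets, *Hspa5* (ENSMUSG00000026864, chr2:34771970-34777547, plus strand), the gene of the chaperone BiP and the one with the ERSE letters, ran from 188 to 270 CPM in control with a median of 238 CPM, and from 210 to 344 CPM in the libraries labelled knockout with a median of 239 CPM. The log2 fold change was 0.07 (95% interval −0.13 to 0.28; adjusted p = 0.615). Knockout replicate 3, which was also highest for *Ddit3*, *Atf4* and *Trib3*, held the highest *Hspa5* and the highest *Xbp1* value of all libraries.

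*Herpud1* (ENSMUSG00000031770, chr8:94386438-94395377, plus strand) encodes an ER membrane protein that helps to remove misfolded proteins. It ran from 110 to 182 CPM in control with a median of 134 CPM, and from 101 to 173 CPM in the libraries labelled knockout with a median of 119 CPM. In 11 of 12 libraries labelled knockout it was below the control median, with replicate 12 as the exception. The log2 fold change was −0.21 ± 0.10 (SE; p = 0.0446, adjusted p = 0.125 by edgeR's quasi-likelihood test). Without knockout replicate 12 it was −0.26 ± 0.09 (SE; adjusted p = 0.0286) and passed, and without control replicate 8, which had the highest value, it was −0.14 (adjusted p = 0.339). An antisense gene, *Gm15890*, overlaps it with at most 7 counts in any library.

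*Dnajb9* (ENSMUSG00000014905, chr12:44205559-44210326, minus strand) encodes ERdj4, a BiP cochaperone and a known target of XBP1. Its level was 33.2 to 46.4 CPM in control with a median of 39 CPM, and 30.2 to 42 CPM in the libraries labelled knockout with a median of 34.7 CPM. In 11 of 12 libraries labelled knockout it lay below the control median, on the opposite side from *Xbp1*. The log2 fold change was −0.16 ± 0.08 (SE; p = 0.0423, adjusted p = 0.121 by edgeR's quasi-likelihood test). Between libraries, *Xbp1* and *Dnajb9* gave r = 0.20 in control (exact permutation p = 0.613, adjusted p = 0.81; rho = 0.12, p = 0.793; n = 8) and r = −0.08 in the libraries labelled knockout (permutation p = 0.816, adjusted p = 0.816; rho = 0.07, p = 0.833; n = 12). Without the farthest pair of libraries r was −0.18 and 0.33.

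*Atf6* (ENSMUSG00000026663, chr1:170704674-170867771, minus strand), the gene of the ER membrane sensor, ran from 30.5 to 43.5 CPM in control and from 30.5 to 52.2 CPM in the libraries labelled knockout. The groups overlapped almost entirely, with a log2 fold change of 0.12 ± 0.10 (SE; adjusted p = 0.408). Activation of ATF6 by cutting of the protein leaves no trace in these counts.

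To compare the stress genes with the secretory factors inside each library, the log2 ratio of *Ddit3* or *Trib3* to *Creb3l1*, *Creb3l2* or *Xbp1* was taken. These ratios reuse the levels above and are given without a test. The ratio of *Ddit3* to *Creb3l1* averaged 1.07 ± 0.86 (SD, n = 8) in control, against −0.79 ± 0.82 (SD, n = 12) with the knockout label. *Ddit3* thus had more CPM than *Creb3l1* in 7 of 8 control libraries, with replicate 5 as the exception, and fewer in 10 of 12 libraries labelled knockout. These counts depend on exon length, for which CPM is not corrected. Per kb of exon, *Ddit3* was the higher in control replicate 5 too (17.3 against 15.2), and *Creb3l1* was the higher in 7 of 12 libraries labelled knockout. The ratio was below the control median in all 12 libraries labelled knockout, and below every control library in 7. Its highest values, 2.30 and 2.19 in control replicates 8 and 6 and 0.85 in knockout replicate 5, were those of the libraries low in cartilage and bone markers.

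The ratio of *Ddit3* to *Creb3l2* went from −0.48 ± 0.37 (SD, n = 8) to −0.83 ± 0.45 (SD, n = 12), and that of *Ddit3* to *Xbp1* from −1.36 ± 0.29 (SD, n = 8) to −1.71 ± 0.38 (SD, n = 12). Both means differed by −0.35, and 4 and 3 libraries labelled knockout were below every control library. With *Trib3* in place of *Ddit3*, the ratio to *Creb3l1* went from −2.31 ± 1.20 (SD, n = 8) to −3.84 ± 1.15 (SD, n = 12). The ratios of *Trib3* to *Creb3l2* and to *Xbp1* each differed by −0.02 between the group means, less than the spread of the libraries, and no library labelled knockout was below the lowest control library. The direction of these last ratios changed with the omission of single libraries, from −0.28 to 0.13 for *Creb3l2* and from −0.26 to 0.15 for *Xbp1*, with the lower ends without control replicate 3 and the upper ends without control replicates 8 and 7.

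**Figure D3:**
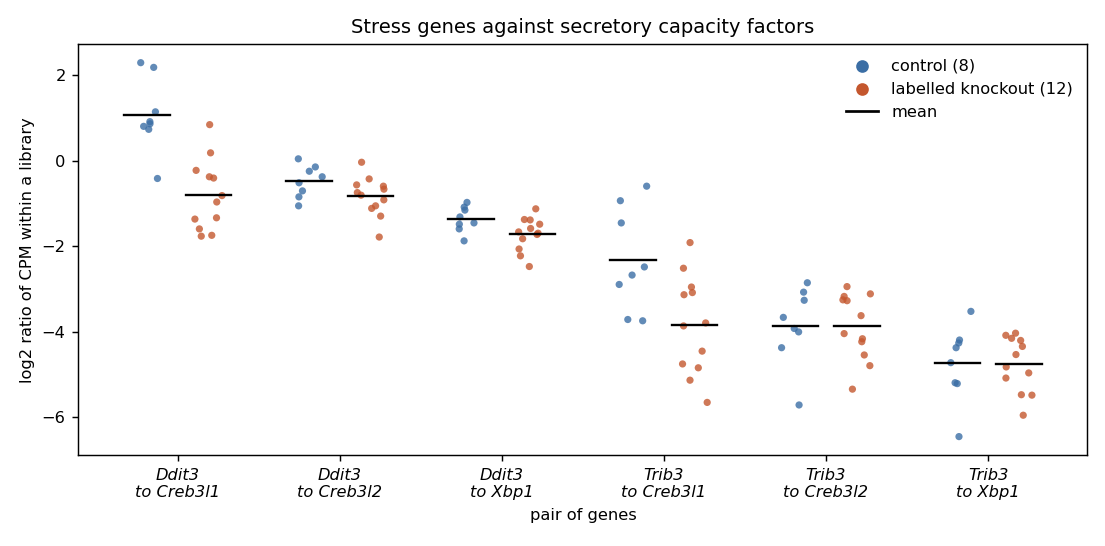
Log2 ratio of CPM within each library for the 6 pairs of a stress gene and a secretory factor, with a line at the group mean. For *Ddit3* to *Creb3l1* the mean is 1.07 in the 8 control libraries and −0.79 in the 12 libraries labelled knockout, and for *Trib3* to *Creb3l2* and to *Xbp1* the groups overlap widely.

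The order of the genes by level, in mean CPM per kb of exon, changed for *Creb3l1*. In control, *Atf4* was highest at 87.5 ± 10.8 (SD, n = 8), followed by *Herpud1* at 60.1 ± 9.55 and *Hspa5* at 55.9 ± 6.67. These neighbours were not separated, since *Herpud1* was above *Hspa5* in 4 of 8 libraries. *Xbp1* at 28.7 ± 3.24, *Ddit3* at 21.4 ± 4.28 and *Dnajb9* at 15.3 ± 1.75 came next, and then *Creb3l1* at 7.6 ± 4.08 and *Creb3l2* at 7.08 ± 1.61, with *Creb3l1* the higher in 4 of 8 libraries. *Atf6* at 3.99 ± 0.501 and *Trib3* at 1.83 ± 0.956 closed the order.

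In the libraries labelled knockout, *Creb3l1* stood at 27.7 CPM per kb ± 11.5 (SD, n = 12), next to *Ddit3* at 22.7 ± 6.76, and was the higher of the pair in 7 of 12 libraries. *Creb3l2* stood at 9.25 ± 1.28, below *Dnajb9* at 13.7 ± 1.35 in all 12 libraries. *Hspa5* at 58.8 ± 8.81 was above *Herpud1* at 51.8 ± 8 in 9 of 12 libraries, an order that the spread does not settle.

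The 10 genes differed in how much they varied between libraries of 1 group. *Creb3l1* and *Trib3* varied most, with coefficients of variation of 53.7% and 52.3% in control and 41.5% and 43.6% in the libraries labelled knockout. *Dnajb9*, *Xbp1*, *Hspa5* and *Atf4* stayed between 9.91% and 15%. Of 10 correlations computed between pairs of these genes within a group, the lowest adjusted p was 0.107. *Creb3l1* and *Creb3l2* gave r = 0.81 in control (exact permutation p = 0.0265, adjusted p = 0.131; rho = 0.57, p = 0.151; n = 8) and r = 0.64 in the libraries labelled knockout (permutation p = 0.0393, adjusted p = 0.131; rho = 0.40, p = 0.201; n = 12). Without the pair of libraries farthest from the group median of log2 *Creb3l1*, which were control replicates 6 and 8 and knockout replicates 5 and 12, the lowest of each group, r was 0.49 in control and 0.01 in the libraries labelled knockout. In the libraries labelled knockout the relation thus rested on replicates 5 and 12. In control r was lower without replicates 6 and 8 but stayed positive. *Atf4* and *Ddit3* gave r = 0.75 in the libraries labelled knockout (permutation p = 0.0107, adjusted p = 0.107; rho = 0.55, p = 0.0666; n = 12), and r was 0.14 without replicates 3 and 8. In control the same pair gave r = 0.12 (exact permutation p = 0.786, adjusted p = 0.816; rho = 0.29, p = 0.501; n = 8), and r was 0.76 without replicates 1 and 8.

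Genes that followed each factor from library to library were found by Pearson's r of log2 CPM after the group means were removed, over 20 libraries and 11138 genes. The libraries share depth and tissue makeup, so r is a description here. All r values include the 3 libraries low in cartilage and bone markers, whose *Creb3l1* values were the lowest of their groups. *Creb3l1* was followed by *Emilin1* (an elastic fibre glycoprotein, r = 0.97), *Ckap4* (an ER membrane protein, r = 0.96) and *Crtap* (a subunit of the collagen prolyl 3-hydroxylase complex, r = 0.96). These 3 genes were also higher in the libraries labelled knockout, with log2 fold changes of 0.99 (adjusted p = 0.0112), 1.40 (adjusted p = 0.00128) and 1.09 (adjusted p = 0.00229). *Creb3l2* was followed by *Slc2a10* (r = 0.91), *Selenon* (r = 0.89) and *Gli2* (a Hedgehog effector, r = 0.89). *Xbp1* was followed by the ER chaperone genes *Calr* (r = 0.84) and *Manf* (r = 0.83) and by *Lmna* (r = 0.80). *Ddit3* was followed by *Sars* (a seryl-tRNA synthetase, r = 0.80), *Lmcd1* (r = 0.79) and *Hspb7* (r = 0.78), and *Trib3* by *Ppp2r1a*, *Ogfod2* and *Slc9a3r2* (r = 0.82, 0.82 and 0.80).

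The wider pathway was read from 5 lists with 114 genes, of which 112 were tested. In all, 33 rose and 4 fell in the libraries labelled knockout, or 33% against 23.0% of all genes tested, with a median log2 fold change of 0.20 against −0.02. Without the 3 libraries low in cartilage and bone markers, 29 passed. In that fit 2336 of all 16525 genes tested passed, against 3673 of 15984 with all libraries.

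Of 17 sensors and regulators, 5 rose, 12 did not pass, and the median was 0.21. The share called, 29.4%, was near the 23.0% of all genes tested. *Eif2ak3*, the gene of PERK, rose from 12.3 to 20.9 CPM, a log2 fold change of 0.77 (adjusted p = 0.00331), with 10 of 12 libraries labelled knockout above every control library. *Creb3* (0.32), *Mbtps1*, which encodes the protease that first cuts ATF6 (0.33), and *Ppp1r15b* (0.21) rose less, and *Creb3l3* rose at a low level, from 0.431 to 2.88 CPM. The values of *Ern1* (0.08, adjusted p = 0.505), *Atf6b* (0.19, adjusted p = 0.296) and *Ppp1r15a*, which encodes the CHOP target GADD34 (0.18, adjusted p = 0.292), did not pass. The number called changed with single libraries: 3 genes passed without control replicate 4, 6 or 8 and without knockout replicate 2 or 8. The same number passed without the 3 libraries low in markers. Calls over all genes fell too, from 3673 to between 2551 and 3159 in these single omissions. Without the 3 libraries they were 2336 of 16525 genes tested. The call of *Ppp1r15b* was lost in 13 of 20 omissions of a single library and that of *Mbtps1* in 5, with adjusted p up to 0.0847 and 0.0614, and both were lost without the 3 libraries.

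Of 36 targets of the integrated stress response, which is led by ATF4, 34 were tested, 8 rose, 2 fell and 24 did not pass, and the median was 0.25. The share called, 29.4%, was again near the 23.0% of all genes tested. *Sesn2* rose by 0.43 on the log2 scale (adjusted p = 0.0202) and *Aldh18a1*, of proline synthesis, by 1.07 (adjusted p = 0.0028). The other genes that rose were *Nupr1* (0.94), *Pck2* (0.92), *Mthfd2* (0.67), *Slc7a1* (0.59), *Bbc3* (0.55) and *Slc3a2* (0.45), which serve mitochondrial metabolism, amino acid transport, transcription and cell death. *Gpt2* fell by 1.16 (adjusted p = 0.0129), but control replicate 8 held 552 CPM of it, and the value was −0.55 (adjusted p = 0.0595) without that library and −0.65 (adjusted p = 0.0349) without the 3 libraries low in markers. *Vldlr* fell by 0.46 (adjusted p = 0.0244), a call lost without control replicate 3 or 8 (−0.35 in both cases). Of the 4 well known genes that the naming rule takes from this list, *Sesn2* passed and the others did not: *Atf3* was at 1.36 (adjusted p = 0.108), *Asns* at 0.66 (adjusted p = 0.0596) and *Chac1* at −0.46 (adjusted p = 0.168). The median of *Atf3* was 6.99 CPM in control and 8.4 CPM in the libraries labelled knockout. Only 2 of these 12 libraries were above every control library, and the highest was at 91.8 CPM. The transfer RNA synthetase genes *Aars*, *Nars*, *Sars*, *Wars* and *Gars* lay between −0.14 and 0.08, and none of these values passed. In this list 6 genes passed without control replicate 8 and without the 3 libraries low in markers. Calls over all genes fell from 3673 to 2551 and 2336 in these fits. In the fit without the 3 libraries, *Sesn2* (0.42, adjusted p = 0.0534 by edgeR), *Bbc3*, *Slc7a1* and *Vldlr* did not pass. The call of *Bbc3* was lost in 10 of 20 omissions of a single library and that of *Slc7a1* in 8, with adjusted p up to 0.0673 and 0.0674.

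Of 21 ER chaperones and foldases, 9 rose, 12 did not pass, and all 21 values were positive with a median of 0.33. The share called was 42.9% against 23.0%. *Erp29* rose from 32.8 to 62.6 CPM (0.93, adjusted p = 0.00144), *Txndc5* from 101 to 169 CPM (0.74, adjusted p = 0.00154), *P4hb*, which is also a subunit of collagen prolyl 4-hydroxylase, from 280 to 425 CPM (0.60, adjusted p = 0.00111) and *Pdia4* from 35.5 to 50.8 CPM (0.52, adjusted p = 0.0202). Chaperone genes that are known to rise under ER stress fell on both sides of the threshold. *Pdia4* and *Manf* (0.41, adjusted p = 0.0345) passed, *Manf* not in 7 of 20 omissions of a single library (adjusted p up to 0.073). The call of *Manf* was also lost without the 3 libraries low in markers (0.40, adjusted p = 0.0774 by edgeR). *Hsp90b1* (0.21, adjusted p = 0.202), *Sdf2l1* (0.33, adjusted p = 0.321) and *Creld2* (0.34, adjusted p = 0.113) did not pass, and neither did *Hyou1* (0.11, adjusted p = 0.502).

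Of 21 genes of ER-associated degradation, 3 rose and 18 did not pass, with a median of 0.05. *Edem1*, a lectin-like protein and known XBP1 target, rose from 21.2 to 41.2 CPM (0.96, adjusted p = 0.00196), and *Os9* (0.59) and *Edem2* (0.49) rose too. *Sel1l* (0.08, adjusted p = 0.5), *Syvn1* (0.12, adjusted p = 0.325) and *Derl3* (0.45 at under 1 CPM, adjusted p = 0.33) did not pass. The share called, 14.3%, was below the 23.0% of all genes, and 5 genes passed without knockout replicate 12. Calls over all genes rose in that fit too, from 3673 to 4167.

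Of 19 genes of COPII vesicles and cargo exit from the ER, 8 rose, 2 fell and 9 did not pass, with a median of 0.12. The share called was 52.6% against 23.0%. *Sec24d* rose from 27.8 to 63.3 CPM (1.19, adjusted p = 0.00196) and *Sec31a* from 110 to 165 CPM (0.58, adjusted p = 0.0024). *Surf4* (0.56), *Sec22b* (0.47), *Lman1* (0.40), *Mcfd2* (0.30), *Sec13* (0.22) and *Sar1a* (0.19) rose less. *Sar1b* fell from 293 to 162 CPM (−0.86, adjusted p = 0.00546) and *Mia2* from 65.8 to 55.2 CPM (−0.25, adjusted p = 0.0273). The call of *Sar1a* was lost in 13 of 20 omissions of a single library (adjusted p up to 0.0813), that of *Mia2* without control replicate 4 or 8 (−0.20 in both cases), and that of *Mcfd2* without the 3 libraries low in markers (0.28, adjusted p = 0.0525). *Sec23a*, the known target of CREB3L2, was at 65.9 CPM in control and 63 CPM in the libraries labelled knockout (−0.07, adjusted p = 0.712), and *Mia3*, whose product TANGO1 loads collagen, was at 0.01 (adjusted p = 0.925).

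**Figure D4:**
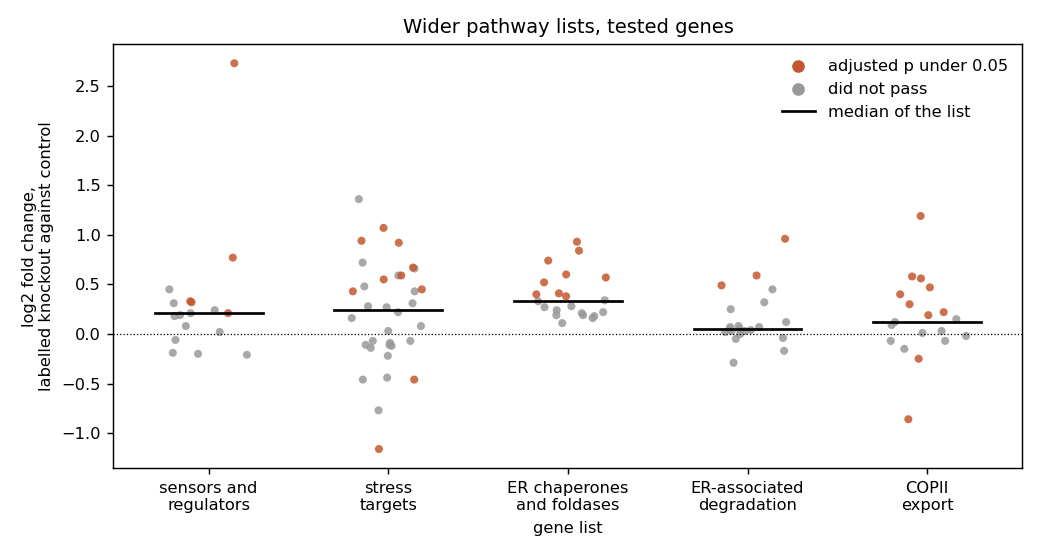
Log2 fold change of each tested gene in the 5 pathway lists, libraries labelled knockout against control, with a line at the median of each list. All 21 values of the ER chaperones and foldases are positive, and most genes of ER-associated degradation lie near 0.

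Markers of several other cell types differed between the groups. Fits with the scores of 3 marker lists as covariates are given below, and whether these cell types caused the differences was not tested. All 8 osteoclast markers were higher in the libraries labelled knockout, with a summed level of 566 to 7709 CPM against 111 to 1346 CPM in control. Of 8 osteoblast and osteocyte markers 4 were higher, with 279 to 3767 CPM against 164 to 1778 CPM. All 5 macrophage markers were higher, with 109 to 461 CPM against 28.2 to 171 CPM, and all 4 mast cell markers, with 2.54 to 172 CPM against 0.612 to 6.25 CPM. Of 8 skeletal muscle markers 4 were lower, with 24101 to 62362 CPM against 33244 to 146386 CPM. Chondrocyte markers passed for 2 of 8 genes. Of B and plasma cell markers 1 of 7 tested passed, *Jchain* of plasma cells, which hold much *Xbp1*. It was higher in the libraries labelled knockout (log2 fold change 1.58, adjusted p = 0.0246). *Igkc* was at 1.63 (adjusted p = 0.0731), and only these 2 of the 7 values were positive. The sum of this list was 24.1 to 461 CPM against 35.3 to 428 CPM in control. The mitochondrial share of counts was 9.06% to 18.29% in the libraries labelled knockout and 15.18% to 23.1% in control.

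The fit was repeated with the score of 1 marker list, its mean log2 CPM in each library, as a covariate. With the osteoblast and osteocyte score, *Creb3l1* was at 1.16 ± 0.20 (SE; adjusted p = 0.00897) and *Xbp1* at 0.36 ± 0.09 (SE; adjusted p = 0.0251), both past the threshold, and *Creb3l2* at 0.17 ± 0.10 (SE; adjusted p = 0.347). With the skeletal muscle score, *Creb3l1* was at 1.41 ± 0.30 (SE; adjusted p = 0.00948), *Xbp1* at 0.41 ± 0.09 (SE; adjusted p = 0.0103) and *Creb3l2* at 0.28 ± 0.13 (SE; adjusted p = 0.168). With the osteoclast score, *Creb3l1* was at 0.57 ± 0.33 (SE; adjusted p = 0.689), *Xbp1* at 0.38 ± 0.12 (SE; adjusted p = 0.579) and *Creb3l2* at 0.12 ± 0.17 (SE; adjusted p = 0.916). In that edgeR fit 0 of all 15984 genes passed and 1279 had an unadjusted p under 0.05, and no other tool was run with the score. The groups took 59.1% of the variance of the osteoclast score, against 26.3% for the osteoblast and osteocyte score and 20.1% for the muscle score, and osteoclast content and group cannot be fully told apart. The value of *Xbp1* stayed between 0.36 and 0.41 under the 3 scores, and that of *Creb3l1* between 0.57 and 1.41. No stress gene passed in these edgeR fits. With the osteoblast and osteocyte, muscle and osteoclast scores, *Atf4* was at 0.22, 0.24 and 0.28 (adjusted p = 0.205, 0.0831 and 0.651). *Ddit3* was at 0.05, 0.10 and 0.21 (adjusted p = 0.9, 0.776 and 0.891). With the osteoclast score *Trib3* was at 0.65, the highest of its values in the 13 alternatives other than omissions of a single library. The lowest of these values was 0.32. The value of 0.65 lay above those of the 3 secretory factors in that fit, an order that was not tested.

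**Figure D5:**
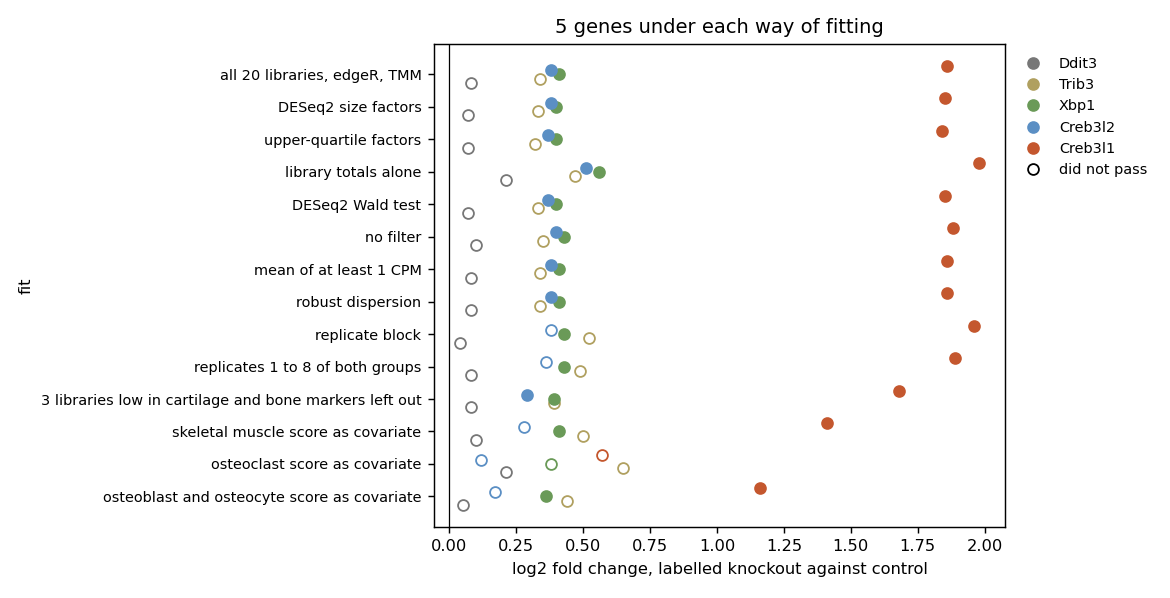
Log2 fold change of the 2 stress genes and 3 secretory factors under each way of fitting, libraries labelled knockout against control, with filled points for an adjusted p under 0.05. *Ddit3* and *Trib3* are open in every fit shown, *Creb3l1* and *Xbp1* are filled in all but the fit with the osteoclast score, and *Creb3l2* is filled in 9 of the 14 fits.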

How the data were processed

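Total RNA of 20 condylar head samples was sequenced as paired-end reads, and the authors deposited raw read counts per Ensembl gene, made by trimming, mapping to mouse mm10 and counting with featureCounts. The aligner, the annotation release and the use of strand are not given in the sources used here. Groups and replicate numbers came from the sample titles, which do not say whether samples are separate animals, so p-values measure the spread between these samples. Library totals ran from 11153820 to 27045668 counts, and intervals include counting error and the spread between samples. No pair of libraries held like counts (smallest chi-square of 32.9 per degree of freedom).

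Of 54532 genes, 54495 were matched by identifier to GENCODE M21 (GRCm38/mm10), which gave symbols, exon lengths and 1-based coordinates. *Ddit3* has 2 identifiers there, and the one with counts was used. Counts were tested in R 4.3.3 with edgeR 4.0.16 (filterByExpr, TMM scaling, quasi-likelihood F-test, two-sided, Benjamini-Hochberg adjustment over 15984 genes, threshold 0.05). SEs were derived from the F statistic, with 95% intervals on 18 residual degrees of freedom. CPM used TMM-scaled library sizes, and log2 CPM a prior count of 2. DESeq2, the tool of the study, served as an alternative in version 1.42.0. Correlations were tested within groups over all 40320 pairings (n = 8) or 100000 resamples (n = 12), two-sided. The procedure was tested on simulated data.

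The 10 genes, 5 pathway lists and 12 marker lists were chosen with earlier results of these data known. Beside the 10 genes and *Loxl2*, the rule named 4 well known genes per pathway list, the largest called rise and fall in each (mean over all libraries of 5 CPM or more), and the 3 genes most like each of 5 factors. Other list genes were named after their values were seen. Alternatives were other scalings, filters and tools, marker scores as covariates, replicate numbers as a block, and omission of each library.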

Additional observations from a re-analysis of the deposited data

Results flagged for a closer look

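The levels of 42 items (the 10 genes, named pathway genes and ratios) were examined for a library far from the others of the control group of 8, in which chance alone would single out about 1 item in 20. The group of 12 was not examined in this way. For 2 of 42 items 1 control library stood apart. *Atf3* was at 21.8 CPM in control replicate 4, against 9.4 CPM in the next highest, a gap of 0.71 of the range. *Gpt2* was at 552 CPM in control replicate 8, against 141 CPM in the next highest, a gap of 0.87 of the range. That library is among the 3 low in cartilage and bone markers and had the highest summed level of skeletal muscle markers, 146386 CPM.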

How the results depend on the processing

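The calls of *Creb3l1* and *Xbp1* held in 32 of 33 alternative fits, the exception being the osteoclast score. Neither the directions nor the calls of the 10 genes changed with DESeq2 size factors, upper-quartile factors, robust dispersion or either filter. With the osteoclast score as covariate 0 of the 10 genes (0 higher) and 0 pathway genes (0 higher, 0 lower) passed, where edgeR gave 0 calls among all genes. Pathway genes called numbered 37 (33 higher, 4 lower) with no covariate, 18 (17 and 1) with the muscle score and 14 (14 and 0) with the osteoblast and osteocyte score, and the lower calls were 2 with library totals alone. Calls over all genes fell from 3673 to 1329 with the muscle score, 750 with the osteoblast and osteocyte score and 2336 without the 3 libraries low in markers, an alternative added after seeing the data. *Herpud1* made 1 lower call with replicates 1 to 8 of both groups (−0.29). Signs of values that had not passed turned for *Ddit3* (−0.02 without knockout replicate 3), *Atf6* (−0.01 with the muscle and −0.08 with the osteoclast score) and *Dnajb9* (0.01 with the osteoclast score). The cause was not tested.

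With single libraries left out, 3 to 4 of the 10 genes passed (3 to 3 higher, 0 to 1 lower, the 1 being *Herpud1* without knockout replicate 12). Pathway genes called numbered 29 to 44 (28 to 40 higher, 1 to 4 lower, with 1 lower without control replicate 8). Calls over all genes moved too in these fits, from 2551 without control replicate 8 to 4181 without knockout replicate 5. Lower calls over all genes were 988 without control replicate 8, against 1755 with all libraries. The difference in the ratio of *Trib3* ran from −0.28 to 0.13 for *Creb3l2* and from −0.26 to 0.15 for *Xbp1*.

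With the replicate numbers 1 to 8 as a block, 23 pathway genes (21 higher, 2 lower) and 1786 of all genes passed, *Creb3l1* was at 1.96, *Xbp1* at 0.43 and *Creb3l2*, no longer called, at 0.38. The numbers did not pair the samples: the correlation of deviations within a number ran from −0.36 to 0.168 and was over 0.1 for 2 of 8 numbers. Depth limits *Trib3* most, at 15 counts in its lowest library.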

Other observations

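Other cell type markers gave the following values beside those described above. Of 4 fibroblast markers 2 were higher in the libraries labelled knockout, with a summed level of 695 to 1361 CPM against 159 to 884 CPM in control. Of 6 salivary gland markers 2 were tested and 1 was higher, and their sum reached 2803 CPM in knockout replicate 9 against at most 17.4 CPM in control. The 6 neutrophil markers, at 14 to 823 CPM against 4.5 to 149 CPM, the 4 adipocyte markers, at 78.7 to 363 CPM against 125 to 284 CPM, and the 3 endothelial markers, at 165 to 369 CPM against 232 to 487 CPM, did not pass.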
